A study of Mus musculus with 12 samples.

Results

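Type 2 conventional dendritic cells (cDC2) of the mouse spleen were split by a fate-mapping label, and RNA-seq of the labelled cells (L-cDC2, tdTomato-positive) was set against that of the unlabelled cells (M-cDC2, tdTomato-negative). Both groups came from Il7r-cre; Rosa26-lsl-tdTomato mice and were taken 4 days after lipopolysaccharide (LPS, 5 mg/kg), a component of bacterial outer membranes that Toll-like receptor 4 senses, had been given into the peritoneum. The libraries were chosen by group label alone, and make up 6 of the 12 in the series, with 3 in each group. They are called L1, L2 and L3 and M1, M2 and M3 here, after their replicate numbers. The remaining 6 libraries, 3 CLP-cDC2 and 3 CDP-cDC2, came from a transfer system. There, common lymphoid progenitors (CLP) or common dendritic cell progenitors (CDP) of wild-type CD45.2+ mice were injected into the marrow of CD45.1+ B6.SJL recipients, which received the same LPS. They were used to estimate the spread and to test whether a difference was the same in both systems. Per the labels, the mice were of the C57BL/6J background, 7 to 8 weeks old and free of specific pathogens, in words that describe wild-type animals and give no separate age for the reporter line. No group without LPS is among the 12 libraries, so every value below is from cells of LPS-treated animals.

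In this line Cre is driven by Il7r, the interleukin-7 receptor gene, which is active in common lymphoid progenitors and in many lymphocytes. A cell that has ever made enough Cre, or descends from one, keeps tdTomato whatever it makes later. M-cDC2 are therefore cells in which the reporter is off, which is not the same as a direct label of myeloid descent. The labels do not say which surface markers were used in the sort, whether the 2 groups shared animals, or whether replicates are separate animals. The p-values thus measure only the spread between these libraries, which may be technical. As background, cDC2 take up antigen, carry it on MHC class II and prime CD4 T cells, and they differ from cDC1, the cross-presenting subset marked by Xcr1 and Clec9a. Spleen cDC2 are commonly divided into cells with the transcription factor T-bet (Tbx21) and cells without it, which carry Clec12a, Clec10a or Mgl2 and share lectins and lysozyme with monocytes.

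Values are FPKM, the fragments assigned to a gene divided by its length and by the depth of the library. Of 55322 genes in the table, 14538 reached 1 FPKM in at least 3 libraries and were tested with limma on log2(FPKM + 1). A gene is called, and is said to have risen or fallen, where its Benjamini-Hochberg adjusted p over all genes tested was under 0.05. Differences are L-cDC2 minus M-cDC2 on that log2 scale and understate the change of genes near 1 FPKM. Genes of B cells, plasma cells, NK cells and innate lymphoid cells (ILC), and T cells, with all immunoglobulin and T cell receptor genes, form a lymphocyte set of 164 tested genes. The other 14374 genes are described first.

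The cDC2 marker Sirpa, and genes that dendritic cells share more widely, were present in every library of both groups. Itgax, the integrin chain CD11c, stood at 85.0, 134 and 86.0 FPKM in L1 to L3 and 76.1, 71.9 and 54.8 in M1 to M3. Sirpa, the inhibitory receptor that separates cDC2 from cDC1, stood at 78.8, 119 and 83.7 against 79.6, 71.1 and 57.9 FPKM. Flt3, the growth factor receptor on which dendritic cells depend, lay at 96.9, 94.9 and 86.2 against 101, 99.2 and 86.3 FPKM, and Zbtb46, the transcription factor typical of conventional dendritic cells, at 19.1, 25.2 and 19.8 against 20.4, 20.1 and 16.7. None of these was called. Recovered depth ran from 26543345 assigned reads in L2 to 73732243 in L3. On the first principal component of the 6 libraries (50.7% of variance) L-cDC2 lay between -29.7 and -22.1 and M-cDC2 between 17.4 and 36.5. On the second (21.2%) L2 (-22.3) and M3 (-25.2) lay apart from the other libraries, which were all above 0. L2 also had 504 FPKM summed over 12 erythroid and platelet markers against 36.7 in L1 and 206 in L3, and 62.6 FPKM over 13 neutrophil markers against 12.7 and 16.7.

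Outside the lymphocyte set 64 genes fell in L-cDC2 (0.445% of 14374) and 76 rose (0.529%). These shares are the baseline for the counts of called list members outside that set. The libraries of the 2 groups did not overlap for any of these 140 genes (0.974% of 14374), against 18.6% of all genes outside the set (11.9% higher and 6.73% lower). After quantile normalization 40.4% of the called genes outside the set were higher, against 54.3% without it. The 2 sides differed in level. Of the 64 genes that fell, 54 averaged at least 5 FPKM in M-cDC2 and 5 averaged under 1 FPKM in L-cDC2. Of the 76 that rose, 28 averaged at least 5 FPKM in L-cDC2 and 49 averaged under 1 FPKM in M-cDC2. The plot of all tested genes shows the lower genes spread over the whole range of expression and the higher ones gathered at low levels. In a bulk sample, fewer cells of a type and less RNA per cell cannot be told apart.

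**Figure D1:**
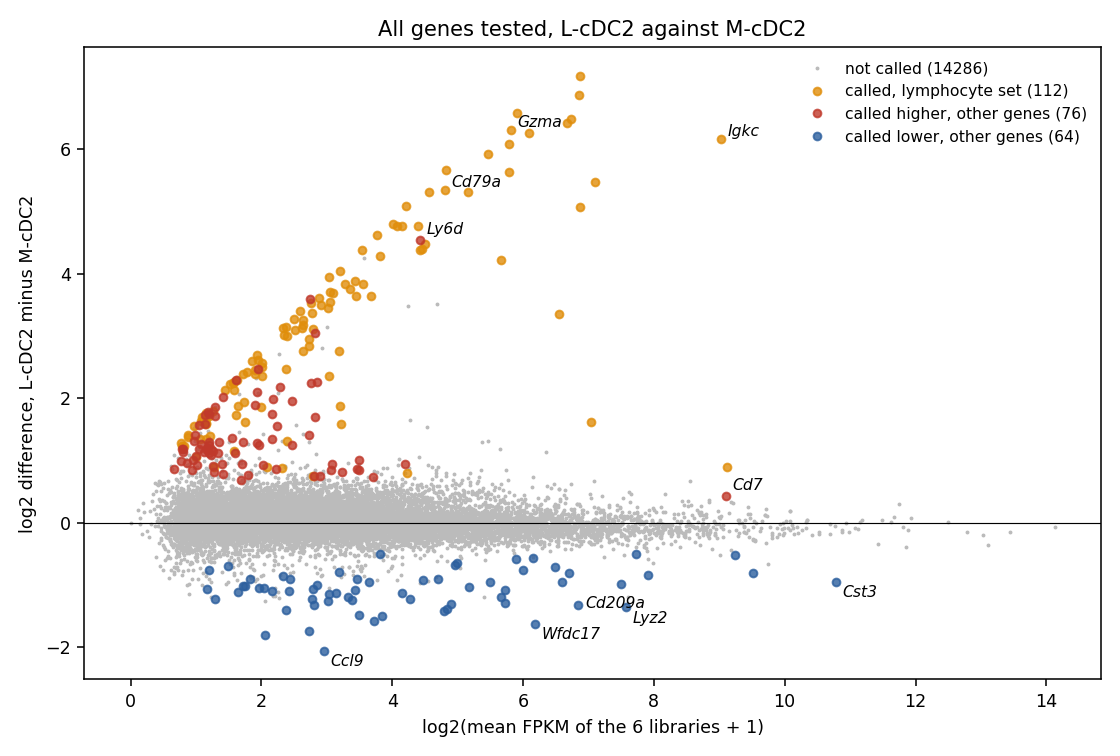
Difference between L-cDC2 and M-cDC2 for each of the 14538 genes tested, plotted as log2 difference against the log2 of the mean FPKM plus 1 over the 6 libraries; each point is a gene and colours mark called genes. All 112 called genes of the lymphocyte set lie above 0, and the genes that fell reach up to Cst3, at more than 1000 FPKM.

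Chemokines and chemoattractant receptors were among the largest falls. Ccl9, a CC chemokine of myeloid cells (ENSMUSG00000019122, chromosome 11 from 83463745 to 83469462 as deposited), stood at 2.25, 2.04 and 1.75 FPKM in L1 to L3 and 10.9, 12.8 and 10.9 in M1 to M3, which is -2.06 ± 0.32 (SE, limma adjusted p = 0.0027) as a log2 difference. Each M-cDC2 library was thus well above each L-cDC2 library. Its genomic neighbour Ccl6 went from 43.1, 41.3 and 39.6 FPKM in M-cDC2 to 18.2, 15.9 and 14.2 in L-cDC2, a difference of -1.31 ± 0.21 (SE, limma adjusted p = 0.0033). Ltb4r1, the high-affinity receptor for leukotriene B4, measured 1.34, 2.32 and 2.48 against 9.40, 6.90 and 11.2 FPKM (-1.74 ± 0.32, SE, limma adjusted p = 0.011). Ccr2, the chemokine receptor that brings monocytes out of bone marrow, measured 3.74, 2.1 and 3.09 against 9.91, 9.88 and 7.01 FPKM (-1.33 ± 0.28, SE, limma adjusted p = 0.028). M-cDC2 libraries were higher for both receptors without overlap, although L-cDC2 values of Ltb4r1 ranged more widely than those of Ccl9. Of 10 chemokines tested Ccl9 and Ccl6 fell and none rose, with a list median of -0.78 beside 0.04 over all genes. The abundant chemokines Ccl3 and Ccl4 were not called, at differences of 0.11 and -0.03, nor was Ccl5 at 0.67 (limma adjusted p = 0.41). Of 18 chemotaxis and egress receptors Ltb4r1, Ccr2 and the cDC1 receptor Xcr1 fell and S1pr1 rose. Calls were lost for Ltb4r1 without L1, L2, M1 or M3 (highest adjusted p 0.092) and Ccr2 without L1, L2, L3, M1 or M2 (highest adjusted p 0.21).

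Some genes shared with monocytes and macrophages fell in L-cDC2 as well, although most of those listed were not called. Lyz2, the lysozyme of myeloid cells, was at 111, 99.4 and 108 FPKM in L-cDC2 and 286, 263 and 274 in M-cDC2, a difference of -1.36 ± 0.24 (SE, limma adjusted p = 0.0087). Its paralog Lyz1, with which it can share reads, was at 6.44, 9.78 and 3.43 against 8.92, 7.09 and 8.80 FPKM and was not called (95% interval -1.34 to 0.58). Wfdc17, a small secreted protein with a protease inhibitor fold, lay at 30.5, 37.5 and 35.8 against 104, 110.5 and 111 FPKM (-1.63 ± 0.20, SE, limma adjusted p = 0.00052), with little spread within either group. Aif1, a calcium-binding protein of macrophages, lay at 15.9, 12.7 and 16.2 against 38.9, 36.7 and 45.8 FPKM (-1.38 ± 0.22, SE, limma adjusted p = 0.0038). Adgre4, an adhesion receptor of the F4/80 family, lay at 4.27, 3.06 and 3.98 against 11.3, 11.1 and 8.76 FPKM (-1.26 ± 0.17, SE, limma adjusted p = 0.0011). Its relative Adgre1, F4/80 itself, was not called (52.6 ± 5.08 against 48.8 ± 5.46 FPKM, SD, n = 3). Cd14, the LPS co-receptor, was low in both groups, at 0.499, 0.435 and 0.415 against 2.82, 1.72 and 2.76 FPKM (-1.23 ± 0.21, SE, limma adjusted p = 0.0069). Of 13 genes listed for monocytes and inflammatory cDC2, Lyz2, Ccr2 and Cd14 fell and none rose, with a median of -0.53. Of 13 macrophage and complement genes Adgre4 alone fell and none rose, with a median of -0.02. Apoe, the apolipoprotein E of macrophages, lay the other way, at 122.6, 96.2 and 114 against 43.8, 50.2 and 56.4 FPKM, and was not called (1.13, limma adjusted p = 0.068). The FPKM summed over all 23 genes listed was higher on average in L-cDC2 and overlapped between the groups (1329 to 1443 against 1183 to 1425, exact permutation p = 0.2, two-sided, where 0.1 is the smallest possible). The monocyte gene Ly6c2 was at 2.66, 1.89 and 3.95 against 1.26, 2.13 and 1.54 FPKM and was not called (limma adjusted p = 0.68). Leaving out 1 library ended the call for Lyz2 and Cd14 without L2 or L3 (highest adjusted p 0.072).

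**Figure D2:**
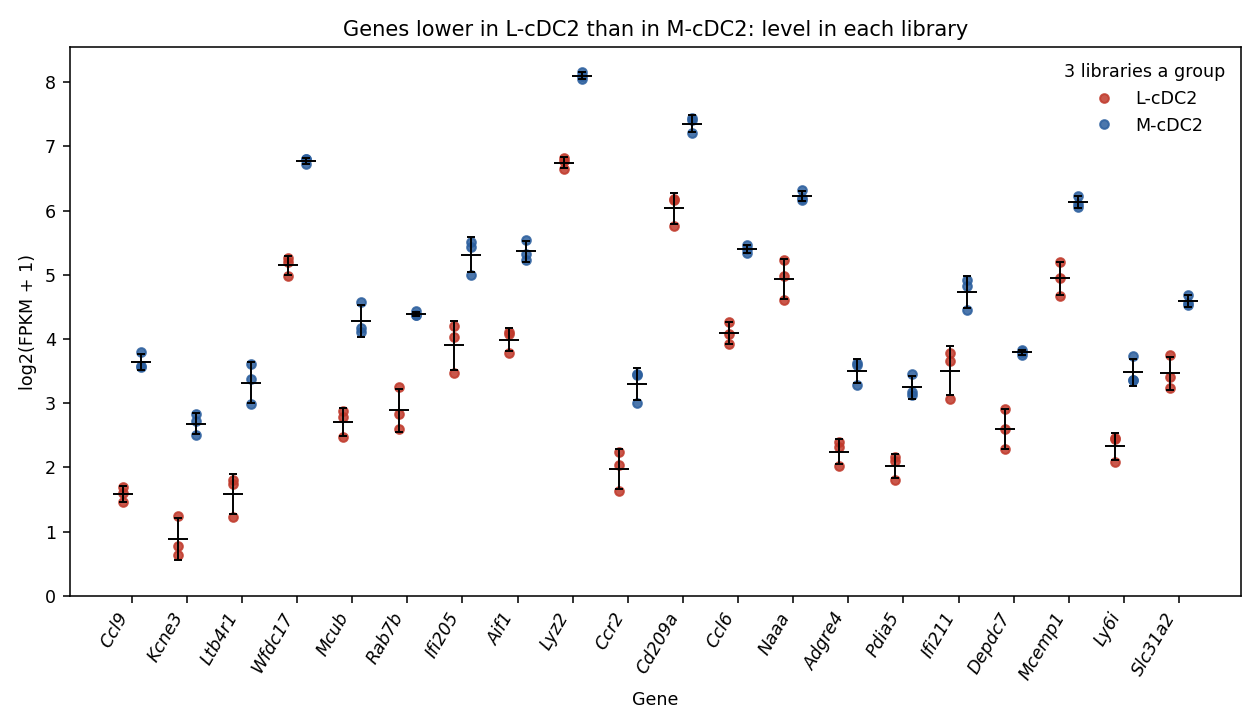
Level of the 20 genes with the largest falls in L-cDC2 among those at 5 FPKM or more in M-cDC2 that the deposited table does not type as predicted genes or pseudogenes (it types Clec7a so), as log2(FPKM + 1) in each library; red points are L-cDC2 and blue points M-cDC2, and black bars are the mean and SD of 3 libraries. No overlap between the groups was a condition for a gene to be shown, so all 3 blue points lie above all 3 red points. Differences run from Ccl9 at -2.06 to Slc31a2 at -1.12.

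Others of the genes with the largest falls have different known roles. Kcne3, a potassium channel subunit, was at 0.705, 0.551 and 1.37 FPKM in L-cDC2 against 5.57, 6.10 and 4.67 in M-cDC2 (-1.80 ± 0.35, SE, limma adjusted p = 0.015). Mcub, the subunit that dampens the mitochondrial calcium uniporter, was at 4.53, 6.37 and 5.86 against 16.3, 17.0 and 22.8 FPKM (-1.57 ± 0.23, SE, limma adjusted p = 0.0016). Slc31a2, a copper transporter, was at 9.65, 8.47 and 12.4 against 22, 24.8 and 22.6 FPKM (-1.12 ± 0.21, SE, limma adjusted p = 0.012). The remaining pair are Pdia5, a protein disulfide isomerase of the endoplasmic reticulum (-1.23 ± 0.27, SE, limma adjusted p = 0.039), and Mcemp1, a membrane protein of mast cells and monocytes (-1.19 ± 0.23, SE, limma adjusted p = 0.018). Mcemp1 was the more abundant, at 30.1, 24.6 and 35.7 against 65.6, 67.7 and 74.3 FPKM, and lies within 100 kb of Cd209a. Depdc7, a protein of little known function, fell by 1.19 and Ly6i, a Ly6 family surface protein, by 1.15 on the log2 scale. That L-cDC2 and M-cDC2 did not overlap was a condition for naming the genes of this group. No longer called were Kcne3 without L1, L2, M1 or M2 (highest adjusted p 0.12) and Slc31a2 without L1, L2 or M2 (highest adjusted p 0.11). It was lost too for Pdia5 without any one of the 6 reporter libraries, CDP-cDC2 replicate 2 or CLP-cDC2 replicate 2 (highest adjusted p 0.25) and Mcemp1 without L1, L2, M1, M2 or M3 (highest adjusted p 0.16). The same was so for Depdc7 without L2 or L3 (highest adjusted p 0.084) and Ly6i without any one of the 6 reporter libraries (highest adjusted p 0.17).

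Promoter sequence was available for 18 of the 20 lower genes shown in the plot of levels by library, which leaves out Clec7a and Cd14, in RefSeq windows of build GRCm38.p6 that run from 250 bases before the annotated start to 50 bases after it. Both strands were searched for the letters GAGGAAGT, a core of sites for PU.1, the myeloid and dendritic cell factor, which 2 of 18 windows held (11.1%, against 3.28% of windows for 27025 genes). The interferon regulatory factor letters GAAANNGAA were in 4 of 18 (22.2%, against 8.57%), the C/EBP letters TTGCNNAA in 1 (5.56%, against 10.8%) and the E-box letters CANNTG in 13 (72.2%, against 72.1%). With so few windows these shares are descriptions, and a match is not a bound site. Of 11 higher genes with a window, 1 held each of the first 3 motifs and 6 held an E-box. The windows with a PU.1 or interferon regulatory factor match are shown because they belong to genes described here, Ltb4r1 and Adgre4 for PU.1, Ccr2, Aif1, Ifi205 and Ifi211 for the other. Capitals mark matches to the first 3 motifs on either strand (E-boxes stay in lower case), and each sequence reads 5′ to 3′ on the strand of its gene. Ltb4r1 (chr14:55765712-55766011, plus strand) and Adgre4 (chr17:55749734-55750033, plus strand) hold the PU.1 letters on the opposite strand, and Adgre4 also the C/EBP letters. Ccr2 (chr9:124101933-124102232, plus strand), Aif1 (chr17:35176003-35176302, minus strand), Ifi211 (chr1:173912997-173913296, minus strand) and Ifi205 (chr1:174031706-174032005, minus strand) hold the interferon regulatory factor letters, Ifi205 at 2 places.
Ltb4r1: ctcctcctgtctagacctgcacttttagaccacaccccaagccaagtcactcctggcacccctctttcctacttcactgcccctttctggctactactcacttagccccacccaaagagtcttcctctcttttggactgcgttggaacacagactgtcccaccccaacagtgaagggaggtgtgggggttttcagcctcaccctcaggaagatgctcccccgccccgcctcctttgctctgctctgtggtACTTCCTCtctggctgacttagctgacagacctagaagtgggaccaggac
Adgre4: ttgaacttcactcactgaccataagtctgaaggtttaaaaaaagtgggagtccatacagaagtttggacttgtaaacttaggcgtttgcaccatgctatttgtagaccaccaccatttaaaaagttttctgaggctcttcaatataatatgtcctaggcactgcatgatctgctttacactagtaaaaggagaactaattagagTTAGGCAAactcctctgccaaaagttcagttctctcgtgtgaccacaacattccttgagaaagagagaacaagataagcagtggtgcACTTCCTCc
Ccr2: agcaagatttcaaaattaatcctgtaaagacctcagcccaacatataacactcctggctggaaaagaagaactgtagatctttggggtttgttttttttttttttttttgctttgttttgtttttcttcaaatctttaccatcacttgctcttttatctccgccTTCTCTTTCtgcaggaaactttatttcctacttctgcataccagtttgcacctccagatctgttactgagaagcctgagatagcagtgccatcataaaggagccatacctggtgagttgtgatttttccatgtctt
Aif1: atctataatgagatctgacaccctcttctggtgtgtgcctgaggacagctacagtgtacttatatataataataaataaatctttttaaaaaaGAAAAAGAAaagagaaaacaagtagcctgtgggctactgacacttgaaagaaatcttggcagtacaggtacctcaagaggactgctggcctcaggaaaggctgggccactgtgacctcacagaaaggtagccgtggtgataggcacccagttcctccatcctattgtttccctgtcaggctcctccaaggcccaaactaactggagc
Ifi211: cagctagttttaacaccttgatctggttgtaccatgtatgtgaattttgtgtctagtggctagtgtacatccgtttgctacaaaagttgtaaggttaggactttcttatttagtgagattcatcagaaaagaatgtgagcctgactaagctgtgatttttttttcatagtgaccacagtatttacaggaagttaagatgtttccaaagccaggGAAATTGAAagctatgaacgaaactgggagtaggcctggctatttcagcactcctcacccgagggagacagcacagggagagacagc
Ifi205: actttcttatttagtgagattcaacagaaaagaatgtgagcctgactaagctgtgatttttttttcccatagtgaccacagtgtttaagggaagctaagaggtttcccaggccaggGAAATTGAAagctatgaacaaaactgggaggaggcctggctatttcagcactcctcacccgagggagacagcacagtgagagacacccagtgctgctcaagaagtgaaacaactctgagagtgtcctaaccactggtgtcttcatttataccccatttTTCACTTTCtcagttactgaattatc
Ifi205 and Ifi211 carry the same capitalised run, GAAATTGAA, and the 2 genes are close relatives that can share reads.

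C-type lectins, the sugar-binding receptors by which dendritic cells sense microbes and dying cells, moved in both directions. Cd209a, a DC-SIGN relative, was at 70.4, 53.3 and 71.5 FPKM in L-cDC2 and 174, 169 and 146 in M-cDC2, a difference of -1.32 ± 0.25 (SE, limma adjusted p = 0.012). Clec7a, the beta-glucan receptor dectin-1, was at 5.73, 4.21 and 5.30 against 14.5, 17.6 and 9.16 FPKM (-1.25 ± 0.22, SE, limma adjusted p = 0.0071). Both were higher in every M-cDC2 library. Clec4a3 and Clec4b1, which are neighbours in the Clec4 cluster and were named with their values in view, fell by 1.09 and 1.03 (limma adjusted p = 0.034 and 0.015), and Clec9a is described with the cDC1 genes. Mgl2, a galactose-type lectin of non-T-bet cDC2, moved the other way, at 3.87, 2.88 and 6.94 against 1.41, 1.21 and 1.12 FPKM (1.25 ± 0.24, SE, limma adjusted p = 0.016). L3 was the highest of the L-cDC2 libraries and no M-cDC2 library reached the lowest of them. Its close paralog Clec10a was at 4.36, 4.78 and 5.92 against 4.39, 2.85 and 2.7 FPKM, with a difference of 0.49 (95% interval 0.11 to 0.88) that was not called (limma adjusted p = 0.37), and reads of the pair can be split between them. Clec12a, another receptor of non-T-bet cDC2, leaned lower without a call, at 6.04, 4.74 and 6.15 against 8.61, 9.78 and 6.94 FPKM (95% interval -1.01 to 0.01). Clec4a4, the receptor DCIR2 of cDC2, stood at 219.6, 165 and 195 against 173, 174 and 138 FPKM and was not called. In all, 5 of 18 lectins tested fell and 1 rose, with a median of -0.35, against 0.445% and 0.529% of genes outside the lymphocyte set. With array weights Clec10a (adjusted p = 0.029) and Clec12a (0.024) passed. With 1 library removed the call was lost for Cd209a without L1, L2, L3, M1 or M2 (highest adjusted p 0.11) and Clec7a without L2 (highest adjusted p 0.07). The call also ended for Clec4a3 without L2, L3, M1, M2, M3, CDP-cDC2 replicate 2 or CLP-cDC2 replicate 1 (highest adjusted p 0.24) and Clec4b1 without L2, L3, M1, M2 or M3 (highest adjusted p 0.13). Likewise it was lost for Mgl2 without L1, L3, M1, M2 or M3 (highest adjusted p 0.086).

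Genes of cDC1 were lower in L-cDC2, although both groups were labelled cDC2. Naaa, an acid amidase strongly expressed in cDC1 (ENSMUSG00000029413, chromosome 5 from 92405518 to 92426029 as deposited), was at 36.6, 23.4 and 30.5 FPKM in L-cDC2 and 72.2, 70.6 and 78.7 in M-cDC2, a difference of -1.28 ± 0.20 (SE, limma adjusted p = 0.0027). Xcr1, the chemokine receptor that defines cDC1, was at 2.97, 2.11 and 2.12 against 6.12, 7.25 and 5.51 FPKM (-1.10 ± 0.18, SE, limma adjusted p = 0.004). Clec9a, the receptor for dead-cell actin, was at 0.787, 1.16 and 0.951 against 4.13, 2.94 and 2.76 FPKM (-1.11 ± 0.22, SE, limma adjusted p = 0.019). All 3 were detected in every library and separated the groups. Irf8, the transcription factor on which cDC1 depend and which cDC2 make at lower levels, was at 28.9, 31.3 and 29.2 against 59.2, 59.7 and 56.1 FPKM (-0.95 ± 0.21, SE, limma adjusted p = 0.033), and shares its span with Galnt2l. Gcsam and the lysosomal thioesterase Ppt1 also fell (-1.0 and -0.81, limma adjusted p = 0.034 and 0.0097). In all, 6 of 14 cDC1 genes tested fell, against 0.445% of genes outside the lymphocyte set, and none rose, with a median of -0.70. Summed over 15 markers, cDC1 genes gave 306 to 336 FPKM in L-cDC2 and 490 to 512 in M-cDC2 (exact permutation p = 0.1, the smallest possible), and no marker was at 0 in all libraries of a group. The members that were not called included Batf3, the factor required for cDC1, at 65.5, 60.4 and 78.5 against 78.1, 84.4 and 104 FPKM, and Cd8a at 6.29, 6.38 and 8.17 against 12.2, 9.48 and 9.61. Wdfy4, needed for cross-presentation, stood at 35.3, 38.2 and 34.7 against 31.7, 32.0 and 29.6 FPKM. The part of cDC1 cells in these differences was not tested. Gcsam and Ppt1 were named after their values were seen. Calls were lost for Clec9a without L1, L2, L3, M1 or M2 (highest adjusted p 0.14) and Irf8 without any one of the 6 reporter libraries (highest adjusted p 0.19). It was lost too for Gcsam without L2, L3, M1, M2 or CLP-cDC2 replicate 1, 2 or 3 (highest adjusted p 0.25) and Ppt1 without L2, L3, M1 or M2 (highest adjusted p 0.09).

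Among lysosomal and antigen-handling genes few were called. Cst3, the cathepsin inhibitor cystatin C (ENSMUSG00000027447, chromosome 2 from 148713642 to 148717612 as deposited), was the most abundant gene called, at 1238, 1039 and 1345 FPKM in L-cDC2 and 2210.3, 2195 and 2573 in M-cDC2, a difference of -0.95 ± 0.14 (SE, limma adjusted p = 0.0026). The cathepsins it inhibits were not called, Ctss at -0.27 and Ctsb at -0.09, and Cst3 was the only one of 14 genes of the cathepsin list that was. Rab7b, a small GTPase of late endosomes and the Golgi, was at 6.10, 5.02 and 8.52 against 19.8, 19.8 and 20.6 FPKM (-1.51 ± 0.24, SE, limma adjusted p = 0.0031). Psap, the precursor of the saposins, and Lgals3, galectin-3, fell by 0.82 and 0.98 (limma adjusted p = 0.025 and 0.0055) and were picked out after their values were seen. H2-DMb1, a chain of the peptide exchange factor H2-DM, was at 541, 489 and 460.1 against 677, 700.5 and 755 FPKM (-0.52 ± 0.12, SE, limma adjusted p = 0.039), and was the only one of 17 genes of MHC class II presentation to be called. H2-Ab1, a chain of the class II molecule itself, was at 8053, 7424 and 7798 against 9458, 9281 and 11075 FPKM, a difference of -0.35 (95% interval -0.60 to -0.11). It was not called (limma adjusted p = 0.25) but passed with array weights (0.048), and its 3 libraries did not overlap with those of M-cDC2. H2-Aa (-0.34) and H2-Eb1 (-0.38), further class II chains, were not called either. Every L-cDC2 library was below every M-cDC2 library for 8 of the 17 class II presentation genes and 5 of the 14 cathepsin genes, and above for 1 in each list, against 6.73% lower and 11.9% higher of all genes outside the lymphocyte set. The transactivator Ciita (0.25) and the invariant chain Cd74 (-0.15) were not called. Tmem176b, an ion channel of endosomes in dendritic cells, was at 172, 164 and 177 against 291, 304 and 326 FPKM (-0.84 ± 0.19, SE, limma adjusted p = 0.045), and its overlapping neighbour Tmem176a fell by 0.72 (limma adjusted p = 0.016). Leaving out 1 library ended the call for H2-DMb1 without any one of the 6 reporter libraries, CDP-cDC2 replicate 2 or CLP-cDC2 replicate 1, 2 or 3 (highest adjusted p 0.27) and Tmem176b without any one of the 6 reporter libraries, CDP-cDC2 replicate 1 or CLP-cDC2 replicate 1, 2 or 3 (highest adjusted p 0.24). The same was so for Tmem176a and Psap without any one of the 6 reporter libraries (highest adjusted p 0.16) and Lgals3 without L2 (highest adjusted p 0.054).

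Of the genes of inflammation, those of interleukin-1 and of Fc receptors held calls. Il1b, the cytokine interleukin-1 beta, was at 64.6, 57.5 and 72.3 FPKM in L-cDC2 and 109.6, 138 and 131 in M-cDC2 (-0.95 ± 0.14, SE, limma adjusted p = 0.002), and its antisense gene Il1bos, from which reads cannot be told apart without strand, was also expressed. Il1rn, the natural antagonist of its receptor, was at 1.11, 1.25 and 1.03 against 2.43, 2.45 and 2.52 FPKM (-0.70 ± 0.15, SE, limma adjusted p = 0.036). Agonist and antagonist were thus both lower in every L-cDC2 library. The other 10 genes of the interleukin-1 and inflammasome list were not called, among them Nlrp3 (0.05) and Il18 (-0.21). Fcgr2b, the inhibitory IgG receptor, was at 7.44, 5.89 and 6.65 against 13.3, 14.2 and 12.7 FPKM (-0.91 ± 0.18, SE, limma adjusted p = 0.02), and Fcgrt, the neonatal Fc receptor that recycles IgG, at 26.0, 23.3 and 22 against 36.0, 39.3 and 37.4 (-0.64 ± 0.13, SE, limma adjusted p = 0.02). Of 6 Fc receptor genes these 2 fell, and Fcgr4 (-0.79) and the shared signalling chain Fcer1g (-0.23) were not called. Of 10 members of the Ifi200 family, sensors of nucleic acid, Ifi205 and Ifi211 fell. Ifi205 was at 15.3, 10.1 and 17.4 against 44.8, 42.1 and 31.0 FPKM (-1.42 ± 0.28, SE, limma adjusted p = 0.019), and Ifi211 at 11.6, 7.40 and 12.8 against 29.2, 27.5 and 20.9 (-1.23 ± 0.25, SE, limma adjusted p = 0.019). No gene of the type I interferon list (31 tested), the guanylate-binding proteins (7), NF-kB (20), costimulation and coinhibition (17), the migratory maturation programme (19) or MHC class I presentation (26) was called. Their medians lay between -0.07 and 0.14. No longer called were Il1rn without any one of the 6 reporter libraries, CDP-cDC2 replicate 2 or CLP-cDC2 replicate 2 (highest adjusted p 0.22) and Fcgr2b and Fcgrt without any one of the 6 reporter libraries (highest adjusted p 0.17). The call also ended for Ifi205 and Ifi211 without L1, L2, M1 or M2 (highest adjusted p 0.16).

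**Figure D3:**
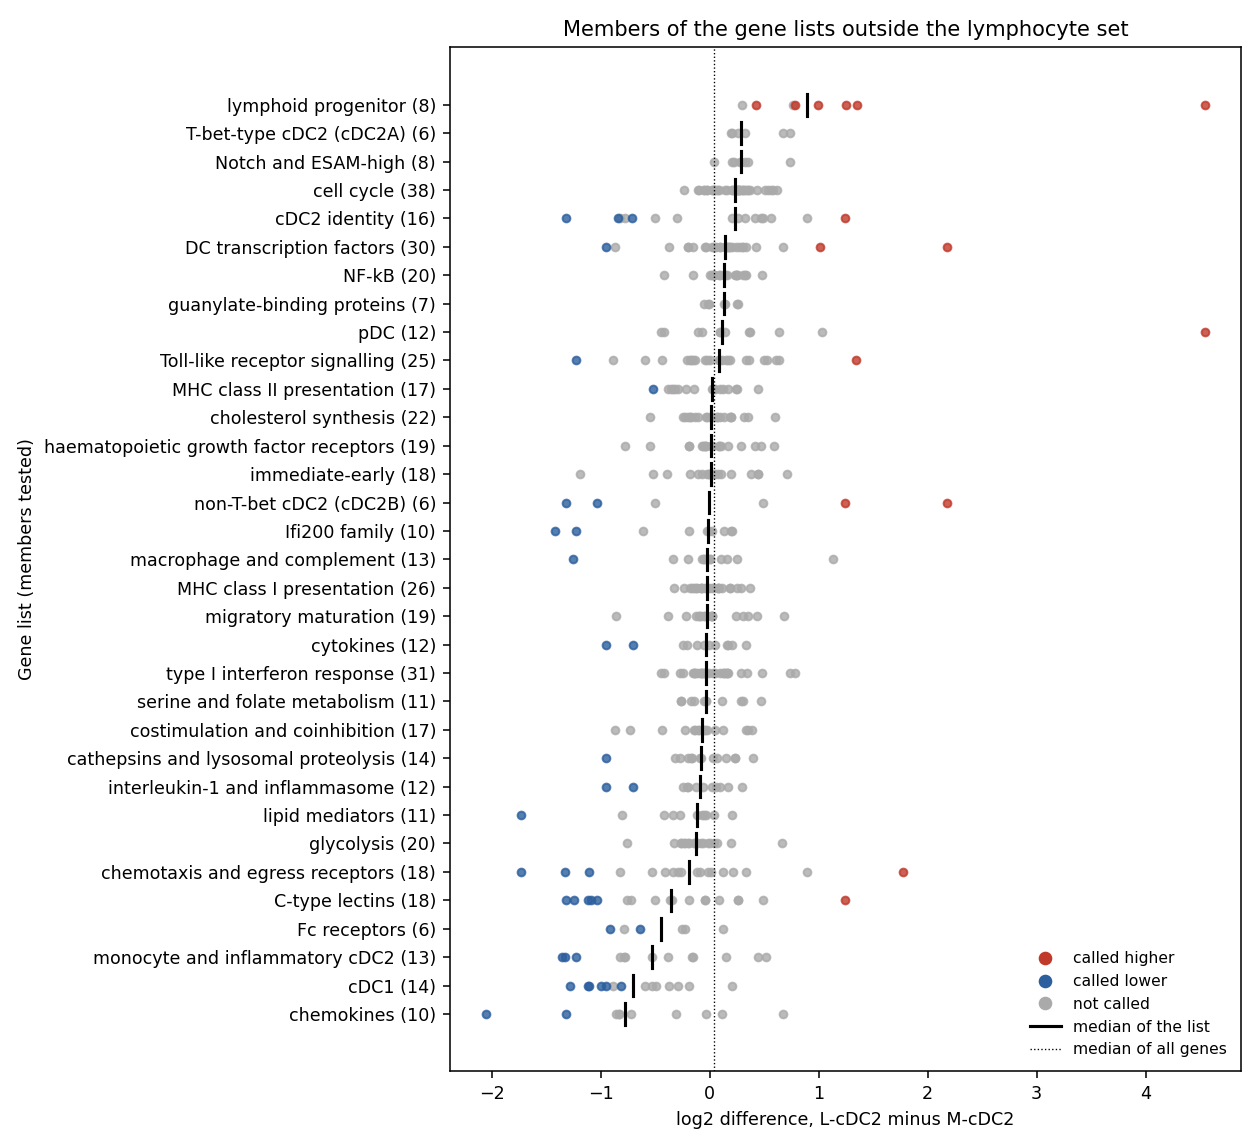
Members of each gene list outside the lymphocyte set with at least 6 genes tested, each point a gene at its log2 difference L-cDC2 minus M-cDC2; red and blue mark genes called higher and lower, grey genes not called, black ticks the median of the list and the dotted line the median of all genes (0.04). Of the lists shown, those of chemokines (-0.78), cDC1 (-0.70) and monocytes (-0.53) lie furthest to the left and that of lymphoid progenitors (0.89) furthest to the right.

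Several genes listed for lymphoid progenitors rose in L-cDC2. Ly6d, a surface protein of progenitors committed to the lymphoid fate and of B cells and plasmacytoid dendritic cells (ENSMUSG00000034634, chromosome 15 from 74633905 to 74635469 as deposited), was at 45.9, 33.2 and 41.2 FPKM in L1 to L3 and 0.954, 0.0273 and 1.64 in M1 to M3, a difference of 4.55 ± 0.45 (SE, limma adjusted p = 8.5e-05). It was the only one of 12 plasmacytoid dendritic cell genes called. Siglech, which defines those cells, was at 1.44, 1.72 and 1.35 against 0.28, 1.37 and 1.39 FPKM (adjusted p = 0.81). Tcf7, the factor TCF-1 of T cells and innate lymphoid cells, was at 6.79, 7.29 and 6.20 against 2.23, 2.45 and 2.11 FPKM (1.25 ± 0.15, SE, limma adjusted p = 0.00044). Ets1, a lymphoid transcription factor, was at 2.72, 3.89 and 3.0 against 0.597, 0.647 and 0.653 FPKM (1.35 ± 0.17, SE, limma adjusted p = 0.00063). Il7r, which drives Cre in these mice, was at 3.05, 2.2 and 1.92 against 0.837, 0.823 and 1.19 FPKM (0.79 ± 0.18, SE, limma adjusted p = 0.039), so its RNA was low in both groups and the groups did not overlap. Gata3 rose from a mean of 0.144 to 1.27 FPKM and Cd7, an abundant surface protein, from 468 to 626 FPKM (limma adjusted p = 0.0029 and 0.037), both named with their values in view. Of the 15 genes listed, Bach2, Dntt, Lef1, Notch1, Rag1, Rag2 and Zbtb16 were under the filter on low values and were not tested. In all 6 of 8 progenitor genes tested rose (median 0.89), against 0.529% of all genes outside the lymphocyte set. A gene could pass that filter through the L-cDC2 libraries alone, which favours members that are high there, so this count and median are descriptions. Most of these genes are also made by mature lymphocytes, whose markers were higher in the same libraries. Summed FPKM in L-cDC2 against M-cDC2 was 327 to 364 against 186 to 198 for 23 B cell markers and 56.2 to 66.4 against 26.0 to 39.2 for 8 plasma cell markers. It was 487 to 606 against 181 to 247 for 42 NK and ILC markers and 105 to 128 against 16.6 to 22.3 for 39 T cell markers. Each gave exact permutation p = 0.1, the smallest possible, and their part in the progenitor genes was not tested. Of the T cell receptor complex, Cd3g, Cd3d and Cd3e were low in both groups. Cd3g was at 0.767, 0.784 and 0.627 FPKM in L-cDC2 against 0.0814, 0.00621 and 0, Cd3d at 0.983, 0.623 and 0.934 against 0.660, 0.246 and 0.260, and Cd3e at 0.0342, 0.0139 and 0.150 against 0 in all 3. The receptor chain Trac was at 2.12, 1.25 and 2.23 against 0.214, 0.499 and 1.03 FPKM, so the libraries of Cd3g, Cd3e and Trac did not overlap. With 1 library removed the call was lost for Il7r without any one of the 6 reporter libraries, CDP-cDC2 replicate 2 or CLP-cDC2 replicate 1 or 3 (highest adjusted p 0.32) and Cd7 without any one of the 6 reporter libraries, CDP-cDC2 replicate 2 or CLP-cDC2 replicate 1, 2 or 3 (highest adjusted p 0.23).

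Of 30 dendritic cell transcription factors tested 2 rose and 1 fell, with a median of 0.14. Ikzf3, the lymphoid factor Aiolos, was at 1.36, 1.91 and 1.5 against 0.395, 0.364 and 0.0922 FPKM (1.01 ± 0.17, SE, limma adjusted p = 0.0043). Ikzf3 was among the factors that rose, and Irf8, described above, was the one that fell. Tbx21, the factor T-bet, was at 44.7, 53.3 and 45.6 against 29.2, 32.8 and 26.9 FPKM and missed the threshold (difference 0.67, 95% interval 0.29 to 1.05, limma adjusted p = 0.1). It passed when L-cDC2 and M-cDC2 were fitted alone (adjusted p = 0.019), with array weights (0.013) and without CDP-cDC2 replicate 3 (0.033). Irf4, the factor needed by migrating cDC2, Klf4 and Zeb2 were not called, with intervals of -0.14 to 0.68, -0.61 to 0.21 and -0.36 to 0.47. Spi1, which encodes PU.1, differed by -0.04 and Relb by 0.02. Of 6 non-T-bet cDC2 genes tested 2 rose, Mgl2 among them, and 2 fell, Cd209a and Clec4b1, so the list did not move one way. None of 6 genes of T-bet-type cDC2 was called (median 0.29), among them Esam (95% interval -0.56 to 0.96) and Cd4 (-0.24 to 0.88).

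Several further genes that rose have no single known role in dendritic cells. Col17a1, a transmembrane collagen of epithelial attachment, was at 6.03, 11.4 and 6.21 FPKM in L-cDC2 and 1.19, 1.45 and 1.0 in M-cDC2 (1.96 ± 0.22, SE, limma adjusted p = 0.00018). Gal, the neuropeptide galanin, was at 6.65, 5.4 and 6.30 against 0.676, 0.258 and 1.72 FPKM (1.99 ± 0.33, SE, limma adjusted p = 0.0047). Capg, a protein that caps actin filaments, was at 7.92, 12.4 and 9.06 against 1.80, 2.2 and 2.88 FPKM (1.71 ± 0.22, SE, limma adjusted p = 0.00079). In each the lowest L-cDC2 library was above the highest M-cDC2 library, as the rule that named them required, and L2 was the highest for Col17a1 and Capg. Prg2, the major basic protein of eosinophils, was at 13.4, 6.97 and 9.74 against 0.371, 2.28 and 1.62 FPKM (2.24 ± 0.32, SE, limma adjusted p = 0.0018). A list of 6 basophil and mast cell markers summed to at most 0.144 FPKM in any of the 6 libraries. No list of eosinophil markers was measured, and the part of eosinophils was not tested. Mmp9, a secreted protease of neutrophils and migrating dendritic cells, was at 12, 14.2 and 16.0 against 6.53, 6.43 and 6.33 FPKM (1.01 ± 0.15, SE, limma adjusted p = 0.0024). Its 3 M-cDC2 values were nearly equal. Mmp9 is on the neutrophil list and counts in its sum. That sum was 12.7, 62.6 and 16.7 FPKM in L1 to L3 and 7.10, 23.3 and 6.83 in M1 to M3. Mmp9 itself made up most of it in L1, L3, M1 and M3, so there the sum is no separate measure of neutrophil genes. Elane and Retnlg of that list were at 0 in all 6 libraries, Ly6g, which defines neutrophils, was at 0 in all M-cDC2 libraries but not in all of L-cDC2, and the part of neutrophils was not tested. Pgam2, the muscle form of phosphoglycerate mutase (1.55), and Cited4, a transcriptional coactivator (1.75), rose as well. So did the receptor Tlr12 (1.34), the peptidoglycan amidase Pglyrp2 (0.85) and the Nogo receptor relative Rtn4rl1 (0.95). The GTPases Gem (0.87) and Rab20 (0.86) and the filament proteins Septin1 (0.95) and Tpm2 (0.85) complete the 19 shown among the genes with the largest rises at 5 FPKM or more. Calls were lost for Tlr12 without any one of the 6 reporter libraries, CDP-cDC2 replicate 1 or 2 or CLP-cDC2 replicate 3 (highest adjusted p 0.26) and Pglyrp2 without L2 or L3 (highest adjusted p 0.082). Likewise it was lost for Rtn4rl1 without any one of the 6 reporter libraries (highest adjusted p 0.24) and Gem without L2, L3, M1 or M2 (highest adjusted p 0.21). It was lost too for Rab20 without any one of the 6 reporter libraries, CDP-cDC2 replicate 1 or CLP-cDC2 replicate 3 (highest adjusted p 0.24) and Septin1 without L2 (highest adjusted p 0.067). The same was so for Tpm2 without any one of the 6 reporter libraries or CLP-cDC2 replicate 3 (highest adjusted p 0.28).

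**Figure D4:**
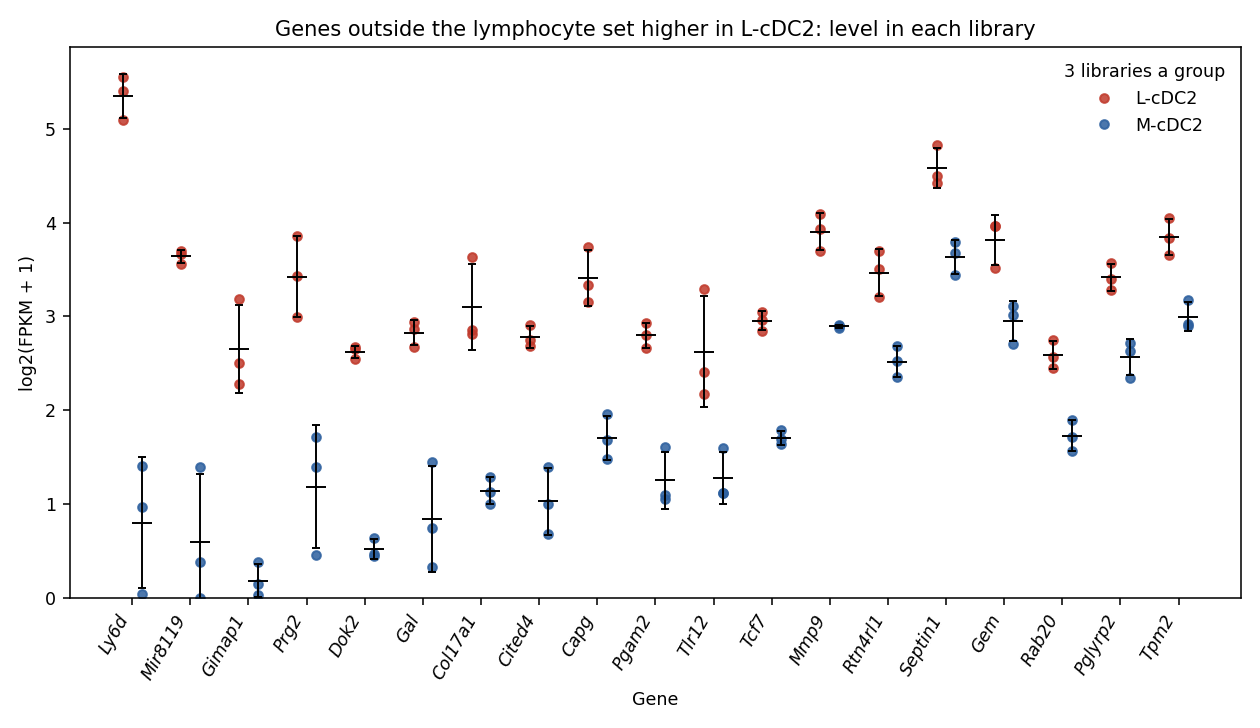
Level of 19 named genes outside the lymphocyte set with the largest rises among those at 5 FPKM or more in L-cDC2, as log2(FPKM + 1) in each library; red points are L-cDC2 and blue points M-cDC2, and black bars are the mean and SD of 3 libraries. Ly6d stands above the rest at 33.2 to 45.9 FPKM. No overlap between the groups was a condition for a gene to be shown, so all 3 red points lie above all 3 blue points.

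Some of the genes that rose lie next to, or work with, genes of the lymphocyte set. Mir8119, a microRNA gene inside the T cell kinase gene Lck, was at 10.8, 11.7 and 11.9 FPKM in L-cDC2 against 1.63, 0 and 0.305 in M-cDC2 (3.05 ± 0.35, SE, limma adjusted p = 0.00028), and without strand its reads and those of Lck, which rose too, cannot be separated. Gimap1, a GTPase for lymphocyte survival, was at 4.67, 3.85 and 8.08 against 0.0217, 0.106 and 0.302 FPKM (2.47 ± 0.26, SE, limma adjusted p = 0.00011), beside 6 Gimap genes of the T cell list that also rose. Dok2, an adaptor that restrains signalling in lymphoid and myeloid cells, was at 4.85, 5.36 and 5.28 against 0.558, 0.385 and 0.366 FPKM (2.1 ± 0.23, SE, limma adjusted p = 0.00018). The L-cDC2 values of Dok2 lay close together. S1pr1, the receptor for sphingosine 1-phosphate that lets lymphocytes leave tissues, was at 2.71, 2.52 and 2.33 against 0, 0 and 0.0905 FPKM (1.77 ± 0.17, SE, limma adjusted p = 4.6e-05), with no read in M1 and M2. The related egress and homing receptors Gpr183, Ccr7 and Cxcr4 were not called, with 95% intervals of -0.40 to 0.37, -0.31 to 0.33 and -0.66 to 0.13.

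Proliferation and metabolism were also compared. None of 38 cell cycle genes was called, at a list median of 0.23, although for 14 of them every L-cDC2 library was above every M-cDC2 library, against 12.7% of all genes. Mki67, the proliferation antigen, was at 18.7, 16.5 and 18.1 against 15.1, 14.6 and 11.2 FPKM (difference 0.37, adjusted p = 0.66), and Top2a, the topoisomerase of dividing cells, at 28.4, 28.0 and 27.2 against 23.7, 18.6 and 15.3 (0.54, adjusted p = 0.46). Glycolysis (20 tested), cholesterol synthesis (22), serine and folate metabolism (11) and the haematopoietic growth factor receptors (19) held no call. Their medians were -0.13, 0.02, -0.04 and 0.01. Csf1r, the receptor of the macrophage growth factor, came nearest, at 9.21, 12.2 and 9.54 against 21.4, 17.6 and 16.2 FPKM (difference -0.78, limma adjusted p = 0.11).

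The same contrast of lymphoid and myeloid origin was next set beside the transfer system. Of the 64 genes that fell in L-cDC2, 33 were also called lower in CLP-cDC2 than in CDP-cDC2, 9 were called higher and 22 were not called, against 6.16% lower and 7% higher of all genes outside the lymphocyte set. Of the 76 that rose, 21 were called the same way, 2 the opposite way and 53 were not called. The difference between the 2 systems itself was tested, and was called for 24 of the 64 and 40 of the 76, against 5.44% of the 14374 genes outside the lymphocyte set and 5.99% of all 14538. These genes were selected on the reporter difference, which is part of that test, so their share is a description. Genes for which the difference between systems was not called included Ly6d (4.55 in reporter mice and 3.76 after transfer), Gal (1.99 and 2.27), Tcf7 (1.25 and 1.18), Ltb4r1 (-1.74 and -2.01), Wfdc17 (-1.63 and -1.42) and Cd14 (-1.23 and -1.33). Lyz2 fell further after transfer (-2.91 against -1.36, adjusted p of the difference 0.023), as did Cd209a (-2.85 against -1.32, 0.027), Clec7a (-2.50 against -1.25, 0.034) and Il1b (-1.87 against -0.95, 0.021). Leaving out 1 library ended the call of a difference between systems for Lyz2 without L1, L2, L3 or M2 (highest adjusted p 0.064) and Cd209a without L1, L2, L3, M2, M3 or CLP-cDC2 replicate 1 (highest adjusted p 0.068). The call also ended for Clec7a without L1, L2, L3, M1, M3, CDP-cDC2 replicate 2 or 3 or CLP-cDC2 replicate 1, 2 or 3 (highest adjusted p 0.079) and Il1b without L1, L3 or CLP-cDC2 replicate 2 (highest adjusted p 0.062).

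Several cDC1 genes had opposite signs in the 2 systems. Irf8 fell by 0.95 in L-cDC2 and stood 1.10 higher in CLP-cDC2 (adjusted p of the difference 0.0028), Xcr1 fell by 1.10 and stood 0.65 higher (0.0031), and Clec9a fell by 1.11 and stood 0.80 higher (0.006). Rab7b (-1.51 and 1.34), Ifi205 (-1.42 and 1.25) and Pdia5 (-1.23 and 1.06) did likewise, with adjusted p of 0.00066, 0.0037 and 0.0065. Among genes that rose, Mgl2 (1.25 and -1.04, 0.0037) and Rab20 (0.86 and -0.79, 0.0054) were called in opposite directions. Col17a1 was called in reporter cells and not after transfer (1.96 against -0.37, 0.0016), as were Dok2 (2.1 against -0.69, 0.00069) and S1pr1 (1.77 against 0.09, 0.0027). Identity genes of cDC2 that were not called in reporter cells also differed between the systems. Sirpa was 0.42 in L-cDC2 minus M-cDC2 against -1.33 after transfer (0.014), Cd4 0.32 against -1.94 (0.0055) and Clec10a 0.49 against -1.07 (0.0049). The homing receptor Ccr7, not called in reporter cells either, was 0.01 against -1.25 (0.006). Reporter and transferred cells differ in host, in progenitor source and in how they were marked, which cannot be told apart here.

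**Figure D5:**
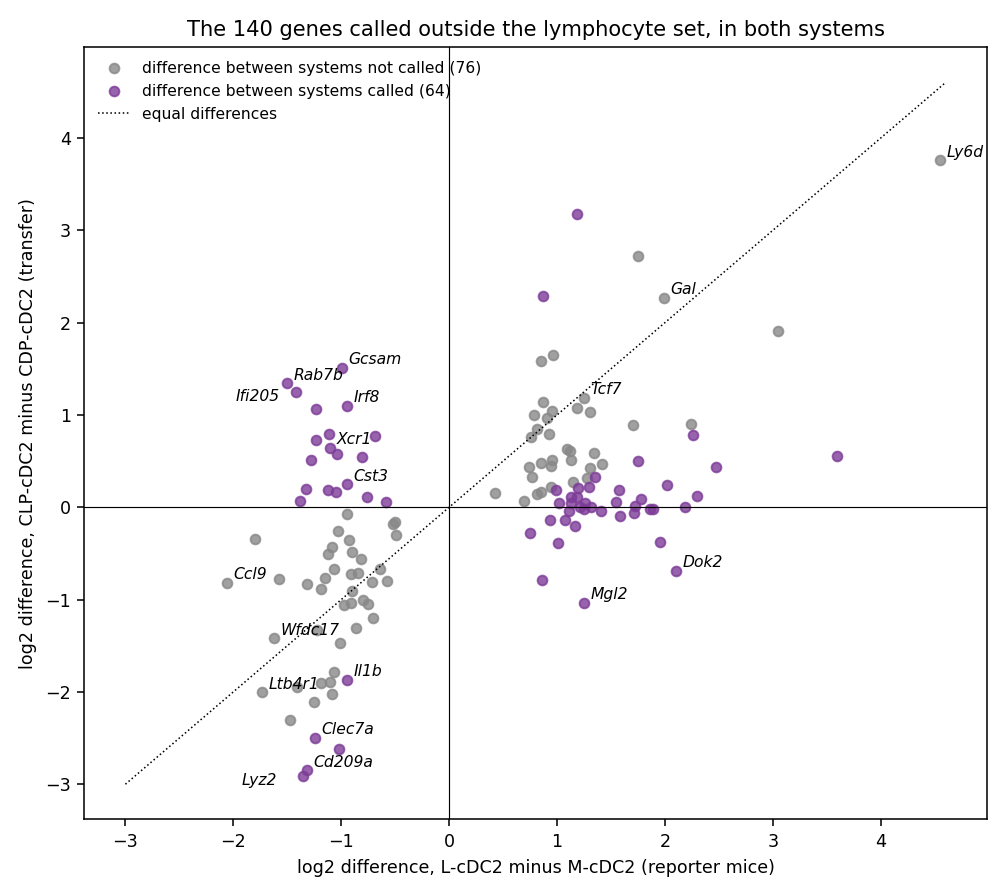
The 140 genes called outside the lymphocyte set, each a point, with the log2 difference in reporter mice (L-cDC2 minus M-cDC2) on the horizontal axis and that after transfer (CLP-cDC2 minus CDP-cDC2) on the vertical axis; purple marks the 64 genes for which the difference between systems was called, and the dotted line equal differences. Lyz2 and Cd209a lie lowest, and Irf8, Xcr1, Gcsam, Rab7b and Ifi205 lie in the upper left, lower in L-cDC2 and higher in CLP-cDC2.

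The lymphocyte set held the largest differences. Of its 164 tested genes 112 rose and 0 fell (median 2.25), and over all genes 188 rose (1.29%) and 64 fell (0.44%), with 1201 genes at an unadjusted p under 0.05. The set has 807 members before the filter on low values. A gene could pass that filter through the 3 L-cDC2 libraries alone, which favours members that are high there. The count of 112 and the median are therefore descriptions. Gzma, a protease that killer lymphocytes release from granules, was at 99.0, 95.4 and 136 FPKM in L-cDC2 and 0.617, 0.262 and 0.294 in M-cDC2 (6.31 ± 0.49, SE, limma adjusted p = 9.1e-06). Nkg7, a protein of cytotoxic granules, was at 78.7, 72.3 and 106 against 0.558, 0.0888 and 0.668 FPKM (5.92 ± 0.58, SE, limma adjusted p = 7.2e-05), and Gzmb at 9.78, 9.50 and 18.9 against 0.154, 0.0141 and 0.0548 (3.61 ± 0.22, SE, limma adjusted p = 1.5e-06). Of 26 NK and ILC genes 19 rose. Klrd1 did not, at 98.4, 76.1 and 82.1 against 90.3, 95.4 and 56.3 FPKM, so the libraries of this NK receptor chain overlapped. Cd79a, which signals for the B cell receptor, was at 57.8, 51.8 and 50.9 against 0.594, 0.139 and 0.297 FPKM (5.35 ± 0.38, SE, limma adjusted p = 5e-06). Of 16 B cell genes 8 rose, with Fcmr, the IgM receptor, at 3.09. Cd79b was at 53.6, 61.3 and 58.2 against 32.7, 38.3 and 46.2 FPKM and was not called. Other genes that define the lymphocyte lineages were also measured. Pax5, the factor that commits B cells, was at 0.321, 0.175 and 0.323 FPKM in L-cDC2 and 0.0200, 0.0505 and 0.0400 in M-cDC2, and the early B cell factor Ebf1 at 0.211, 0.278 and 0.257 against 0.0159, 0.00624 and 0.00807. Ncr1, the NK receptor NKp46, was at 6.91, 6.82 and 14.2 against 0.0144, 0 and 0.0128 FPKM. Both B cell factors were under the filter on low values, and with Ncr1 were named with their values in view. At 0 in all M-cDC2 libraries were Gimap5, Cd3e, Bcl11b, Trgc1 and Trgc2 of the T cell list and Tnfrsf17 of the plasma cell list. In L-cDC2 Gimap5 was at 2.223, 1.775 and 1.793 FPKM, Cd3e at most at 0.150 and Bcl11b at most at 0.0485. Trgc1 and Trgc2 were at 0 in L1 and L2 too, and Tnfrsf17 in L3. Gzmc of the NK and ILC list was at 0 in all L-cDC2 libraries and in M2 and M3, and at 0.0744 FPKM in M1. Immunoglobulin genes summed to 6829, 4768 and 4302 FPKM in L1 to L3 and to 598, 499 and 514 in M1 to M3. L1 was the highest. Of 4 plasma cell genes Jchain (2.75), Mzb1 (3.37) and Derl3 (1.39) rose. T cell receptor genes summed to 79.2, 74.8 and 101 FPKM against 7.89, 13.3 and 2.15. Of 19 T cell genes 13 rose, with Gimap4 at 4.04, Trbc2 at 3.13 and Cd2 at 3.11. In the transfer system Gzma, Cd79a and Gimap4 differed by 0.50, 0.17 and 0.02, and were not called. No longer called were Jchain without L1, L2, M1, M2, M3 or CDP-cDC2 replicate 2 (highest adjusted p 0.28) and Derl3 without L1 or M3 (highest adjusted p 0.081).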

How the data were processed

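RNA from spleen cDC2 was made into SMART-Seq HT and Nextera XT libraries, per the labels' protocols. The authors deposited 1 table of FPKM values for 55322 genes, per the file headers. The submitters' processing notes name the read trimmers Trim Galore 0.6.7, cutadapt 3.7 and Trimmomatic 0.39, the aligner STAR 2.7.9a, and also DESeq2 1.20.0 and featureCounts 2.0.1, and list GRCh38 with GRCm38, with no role or order. Counting by strand and the build of the deposited coordinates are not given in the sources used here. Reads were recovered from the FPKM as multiples of 0.01 read, taking the commonest low value as 1 read. In each library 100.0% of values above 0 lay within 0.05 of such a step, and 44.8 to 53.2% were whole reads.

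Groups followed the labels. A linear model with 4 group means was fitted to log2(FPKM + 1) of the 12 libraries in limma 3.58.1 (R 4.3.3), with moderated variances that follow the mean level and two-sided tests. It covered the 14538 genes that reached 1 FPKM in 3 or more libraries, and gave L-cDC2 minus M-cDC2 and the difference between systems. Benjamini-Hochberg adjustment ran over all of these genes. Intervals are 95% intervals of that fit. Summed FPKM of marker lists were compared by exact two-sided permutation. The members, 40 gene lists and tests were chosen with earlier results of these data known. Lists are described by counts and medians without a test.

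Named genes were up to 20 called genes per direction outside the lymphocyte set, with the largest difference, a mean in the higher group of 5 FPKM or more and no overlap, and no predicted genes or pseudogenes. Up to 3 called members per list, 3 of each lymphocyte list and genes fixed by name were added. This rule names 2 further genes that were left out of the text and figures. Alternatives were other pseudocounts (0.1 and 5), filters and scalings, the 2 groups alone, array weights, no trend, protein-coding genes, removal of the lymphocyte set, a replicate block, voom on recovered reads, and each library left out. On simulated data with 14180 genes, 200 of them changed, the test of L-cDC2 minus M-cDC2 recovered 44% of log2 changes of 1 and 90% of those of 2, with 7 false calls. The changed genes were drawn from those with a mean of at least 200 reads, so recovery at lower levels was not measured.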

Additional observations from a re-analysis of the deposited data

Results flagged for a closer look

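A difference between the 2 systems singled out the genes of this section. Each has a log2 value of L-cDC2 minus M-cDC2, less that of CLP-cDC2 minus CDP-cDC2, that passed the limma test of the difference itself. It was called for 871 of the 14538 genes tested (5.99%), and for 46 of the 86 named genes, many of which were chosen for their reporter difference.

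Genes that fell in L-cDC2 had a value below 0, that is a lower reporter than transfer difference, for Rab7b (-2.85, adjusted p = 0.00066), Ifi205 (-2.67, adjusted p = 0.0037), Pdia5 (-2.29, adjusted p = 0.0065), Irf8 (-2.04, adjusted p = 0.0028) and Ifi211 (-1.96, adjusted p = 0.0092). The same held for Clec9a (-1.91, adjusted p = 0.006), Naaa (-1.79, adjusted p = 0.0041), Xcr1 (-1.75, adjusted p = 0.0031), Ccr2 (-1.52, adjusted p = 0.043) and Aif1 (-1.45, adjusted p = 0.021). Further values below 0 were those of Slc31a2 (-1.30, adjusted p = 0.026) and Cst3 (-1.20, adjusted p = 0.0071). Above 0, since the fall was larger after transfer, were Lyz2 (1.55, adjusted p = 0.023), Cd209a (1.53, adjusted p = 0.027), Clec7a (1.25, adjusted p = 0.034) and Il1b (0.92, adjusted p = 0.021). Genes that rose in L-cDC2 outside the lymphocyte set and are named here all had values above 0, among them Dok2 (2.79, adjusted p = 0.00069), Col17a1 (2.33, adjusted p = 0.0016), Mgl2 (2.29, adjusted p = 0.0037), Gimap1 (2.03, adjusted p = 0.0098) and S1pr1 (1.68, adjusted p = 0.0027). These were followed by Rab20 (1.65, adjusted p = 0.0054), Pgam2 (1.5, adjusted p = 0.016), Mmp9 (1.39, adjusted p = 0.0041), Cited4 (1.25, adjusted p = 0.04) and Ets1 (1.03, adjusted p = 0.029). The smallest was that of Ikzf3 (0.97, adjusted p = 0.032).

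Of genes with no call in reporter cells, values above 0 were found for Lyz1 (2.90, adjusted p = 0.021), Cd4 (2.26, adjusted p = 0.0055), Sirpa (1.74, adjusted p = 0.014), Clec10a (1.57, adjusted p = 0.0049) and Itgax (1.45, adjusted p = 0.026). To these add Ccr7 (1.26, adjusted p = 0.006), Itgam (1.24, adjusted p = 0.038), Zbtb46 (1.11, adjusted p = 0.034) and Tbx21 (1.05, adjusted p = 0.029). Below 0 was Clec12a (-1.53, adjusted p = 0.022). In the lymphocyte set values above 0 were those of Gzma (5.81, adjusted p = 0.00075), Cd79a (5.18, adjusted p = 0.00031), Nkg7 (4.80, adjusted p = 0.0071), Gimap4 (4.02, adjusted p = 0.00052) and Gzmb (3.68, adjusted p = 9.3e-05). To these add the smaller Mzb1 (3.15, adjusted p = 0.0061), Fcmr (2.78, adjusted p = 0.019), Trbc2 (2.56, adjusted p = 0.0037) and Cd2 (2.18, adjusted p = 0.012).

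Of these 46 genes, 28 kept the call without each of the 12 libraries in turn. The call was lost, with adjusted p up to the value in brackets, for Clec12a without L2, M2 or CLP-cDC2 replicate 1 (0.073), for Ccr2 without any one of the 6 reporter libraries, CDP-cDC2 replicate 3 or CLP-cDC2 replicate 1 or 3 (0.12) and for Aif1 without L2, M3 or CLP-cDC2 replicate 1 or 2 (0.071). Losses were also seen for Slc31a2 without L1, L2, M2, M3 or CLP-cDC2 replicate 1 or 3 (0.082), for Il1b without L1, L3 or CLP-cDC2 replicate 2 (0.062) and for Ikzf3 without M2, M3, CDP-cDC2 replicate 3 or CLP-cDC2 replicate 1 or 2 (0.073). It was lost for Ets1 without L2, L3, M1, M2, M3, CDP-cDC2 replicate 2 or CLP-cDC2 replicate 1 (0.094), for Tbx21 without any one of the 6 reporter libraries or CLP-cDC2 replicate 2 (0.092) and for Zbtb46 without any one of the 6 reporter libraries or CLP-cDC2 replicate 1 or 2 (0.1). Losses were also seen for Itgam without any one of the 6 reporter libraries, CDP-cDC2 replicate 3 or CLP-cDC2 replicate 2 or 3 (0.11), for Clec7a without L1, L2, L3, M1, M3, CDP-cDC2 replicate 2 or 3 or CLP-cDC2 replicate 1, 2 or 3 (0.079) and for Cited4 without L1, L2, L3, M1, M2, CDP-cDC2 replicate 1 or 2 or CLP-cDC2 replicate 2 or 3 (0.098). It was lost for Itgax without L2, M2, M3 or CLP-cDC2 replicate 2 (0.075), for Pgam2 without L2 (0.059) and for Cd209a without L1, L2, L3, M2, M3 or CLP-cDC2 replicate 1 (0.068). Losses were also seen for Lyz2 without L1, L2, L3 or M2 (0.064), for Fcmr without L2 or L3 (0.066) and for Lyz1 without L1, L2, M2 or CLP-cDC2 replicate 1 (0.069).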

How the results depend on the processing

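Of 67 named genes called in L-cDC2 minus M-cDC2, 32 kept the call under each of the 26 alternatives that tested them (18 were tested under all 26), 35 lost it under at least 1, and 0 changed direction. With array weights 538 genes rose and 300 fell, 405 and 300 outside the lymphocyte set, and 2044 differed between systems. Without a filter on low values 35 fell (all outside the set), 120 rose outside the set and 255 differed between systems. At 5 FPKM 84 rose, 24 of them outside the set. Among protein-coding genes 110 rose, and with the lymphocyte set removed before the fit 66 rose. Leaving out each library gave 78 to 209 genes higher and 18 to 80 lower, 25 to 94 higher outside the set, and 190 to 1240 that differed between systems. Each L-cDC2 library taken out brought the higher count outside the set to 27, 26 or 25 (L1, L2, L3), and the lower count to 32, 18 or 29. Without M1, M2 or M3 the lower count was 30, 29 or 38. With M-cDC2 replicate 3 and CDP-cDC2 replicate 3 removed together 460 genes differed between systems. Quantile normalization gave 64.4% of called genes higher against 74.6%. Summed as log2(FPKM + 1), the macrophage list was lower in L-cDC2 by 1.11 (-1.11, exact permutation p = 0.3) where the sum of FPKM was higher. The cause of these changes was not tested, beyond the fewer genes or libraries in some fits.

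Deviations of same-numbered L-cDC2 and M-cDC2 libraries from their group means correlated at 0.13, -0.22 and -0.08. Those of unlike number ran from -0.19 (L1 with M3) to 0.23 (L2 with M3). With 3 libraries a group these values cannot tell whether the numbers pair the libraries. With the replicate block 174 genes rose and 54 fell, and 528 differed between systems. Depth was at least 26543345 reads, and genes with 3 reads or fewer in a library, such as Gimap1 in M1, S1pr1 in M1 and M2 and Mir8119 in M2 and M3, are limited by counting.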
